A study of Homo sapiens with 38 samples.

Results

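The mitochondrial ribosomal protein genes were taken here as the protein-coding genes of the hg38 annotation (GENCODE 44) whose symbol starts with MRPL or MRPS followed by a digit. There were 78 of them among 20046 protein-coding genes, 49 with an MRPL symbol and 29 with an MRPS symbol. A gene was counted as occupied in a peak list when a peak lay within 1000 bp of any of its annotated transcript starts, so the unit is a promoter and not a transcript level. CUT&RUN, in which a nuclease tethered by an antibody cuts out the DNA bound by a chosen protein, was done in U2OS cells, a human osteosarcoma line. All 38 samples carried V5 and Halo tags on both copies of endogenous Sp1 and came from a single knock-in clone. The parental line (CTRL) had no transgene. The other lines carried a SNAPf-tagged and FLAG-tagged transgene at the AAVS1 locus that doxycycline switches on. The labels give every sample, the parental ones included, the same treatment of 1 μg/ml doxycycline for 36 h, cell sorting, and 36 h more in the drug. The transgenes were wild-type Sp1 (Sp1 WT), its zinc-finger DNA binding domain (Sp1 DBD), the disordered region of EWS on that domain (EWS IDR–Sp1 DBD), a mutant Sp1 (Sp1 mutant), the CTCF DNA binding domain (CTCF DBD), the Sp1 activation domain on that domain (Sp1 IDR–CTCF DBD), the bacterial repressor LacI, the Sp1 activation domain on LacI (Sp1 IDR–LacI), and SNAPf with only a nuclear localization signal (SNAPf-NLS). In the paper, Sp1 DBD lacks the N-terminal disordered region of Sp1 and keeps the short C-terminal one. The Sp1 mutant that the paper profiled by CUT&RUN is a disease-associated form with the N-terminal region intact and a single zinc finger left. All 10 lines were profiled with mouse anti-FLAG, and the parental line with a rabbit anti-FLAG as well. Anti-V5 antibodies from rabbit and from mouse were used in the parental, Sp1 WT, Sp1 IDR–LacI and Sp1 IDR–CTCF DBD lines, where they read the tag on endogenous Sp1. Each of the 19 lists was made by the authors from 2 biological replicates and has no replicate of its own, so the counts below carry no spread between cultures and no test was made of them. The depth behind each list is unknown here, since read numbers were not analysed.

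The mitochondrial ribosome translates the few messages encoded by mitochondrial DNA, all of which specify membrane proteins of oxidative phosphorylation. Its RNAs are made in the organelle, whereas its proteins are encoded by nuclear genes scattered over the chromosomes, translated in the cytosol and imported. Many of these proteins descend from bacterial ribosomal proteins and others were added in the mitochondrial lineage. Sp1 is a zinc-finger activator that binds GC boxes, G-rich elements common in CpG island promoters of widely expressed genes. Of the 78 genes, 51 encode proteins of the large subunit and 26 proteins of the small subunit, following structures of the ribosome rather than the symbols (MRPS18A and MRPS30 sit in the large subunit). The remaining one, MRPS36, encodes a protein now known as a component of the 2-oxoglutarate dehydrogenase complex. By descent, 46 were counted as having a bacterial homologue and 31 as specific to mitochondria. MRPS18B was counted with the latter, although it is a paralogue of a bacterial small-subunit protein.

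The sequences below are examples of occupied and unoccupied promoters of these genes. The first 2 are those of the highest ranked members of the Sp1 WT FLAG list, MRPL2 and MRPL18, read within 150 bp of the peak summit and cut to bases that lie in no annotated exon. The last is that of MRPL12, a stalk protein gene that had no peak in any list of Sp1 or a protein with its DNA binding domain, read straight before the start. All are hg38, written 5′ to 3′ on the strand of the gene, with each GC box (GGGCGG on either strand) in capitals. MRPL2 is at chr6:43059686-43059856 (minus strand), MRPL18 at chr6:159789704-159789811 (plus) and MRPL12 at chr17:81703318-81703366 (plus).
MRPL2: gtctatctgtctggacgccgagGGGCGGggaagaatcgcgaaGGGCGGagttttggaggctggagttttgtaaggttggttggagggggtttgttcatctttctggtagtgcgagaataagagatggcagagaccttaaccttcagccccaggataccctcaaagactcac
MRPL18: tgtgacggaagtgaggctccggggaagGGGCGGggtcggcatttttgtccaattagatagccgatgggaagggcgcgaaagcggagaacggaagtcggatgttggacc
MRPL12: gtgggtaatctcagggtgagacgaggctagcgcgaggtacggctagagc

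MRPL2 showed 2 GC boxes in this stretch and MRPL18 showed 1. The MRPL2 stretch lies upstream of MRPL2 and past a start of KLC4, its neighbour on the opposite strand. Both of its boxes are thus inside KLC4. The nearest box lay 75 bp from the summit at MRPL2 and 81 bp at MRPL18. The stretch before MRPL12 held none, which says only that these letters are not in those bases.

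Induced Sp1 WT occupied 25 of the 78 genes, and 53 had no peak within 1000 bp of a start. That was 32.1% of the members (95% Wilson interval, 22.7 to 43%), beside 23.7% of all protein-coding genes. The interval, here and below, covers counting error over genes only. It contains the share of all genes, so the members' count in the longest list was near the background. Below it in length came the Sp1 DBD list with 11 members (14.1%, 8.06 to 23.5%) beside 16.1% of all genes, and the EWS IDR–Sp1 DBD list with 5 members (6.41%, 2.77 to 14.1%) beside 11.1%. Thus the members' share was above that of all genes for full-length Sp1 and below it for both proteins that lack the Sp1 activation domain, each time with an interval that holds the background. With these lists and the anti-V5 lists cut to the 1332 highest ranked peaks each, the length of the shortest of them, Sp1 WT had 8 members (10.3%, beside 7.1% of all genes), Sp1 DBD 4 (5.13% beside 6.95%) and EWS IDR–Sp1 DBD 3 (3.85% beside 6.15%).

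Endogenous Sp1 in the parental line was found at 11 members with rabbit anti-V5 (14.1%, 8.06 to 23.5%), beside 10.4% of all genes, and at 10 members with mouse anti-V5 (12.8%, 7.12 to 22%), beside 9.75%. In the Sp1 WT line the anti-V5 lists held 9 members with the rabbit antibody (11.5%, beside 8.65% of all genes) and 6 with the mouse antibody (7.69%, beside 6.8%). The Sp1 IDR–LacI line gave 15 members with rabbit anti-V5, or 19.2% (12 to 29.3%), and the background there was 11%. Its mouse anti-V5 list held 8 members (10.3%, 5.29 to 19%), beside 8.79%. In the Sp1 IDR–CTCF DBD line the counts were 11 (14.1%, beside 11.1%) with rabbit and 6 (7.69%, beside 7.33%) with mouse anti-V5. All 8 anti-V5 lists thus placed the members at or slightly above the share of all genes, and only the rabbit list of the Sp1 IDR–LacI line had an interval above it. At equal list length that list held 7 members (8.97%) beside 7.19% of all genes, the same number as either anti-V5 list of the parental line.

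Apart from Sp1 and its DNA binding domain, only the CTCF DBD placed peaks at these promoters. Its list of 649 peaks occupied 5 members (6.41%, 2.77 to 14.1%), beside 1.88% of all genes. These were MRPL34, MRPL58, MRPS12, MRPS2 and MRPS30. The agreement of the replicates was weaker in that list, with a Spearman correlation of 0.345 between the replicates' −log10 p-values over its peaks, against 0.69 to 0.901 in the 11 lists of Sp1-type proteins, as a description over peaks of the same libraries. No member was occupied in the remaining 7 lists, for which the Wilson interval runs to 4.69%. The share of all genes was 0.574% for Sp1 IDR–CTCF DBD (166 peaks), 0.00499% for Sp1 IDR–LacI (228 peaks), 0.0649% for rabbit anti-FLAG in the parental line (54 peaks), and 0% for LacI, Sp1 mutant, SNAPf-NLS and mouse anti-FLAG in the parental line. The count of 0 was thus near the background in each of them.

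**Figure D1:**
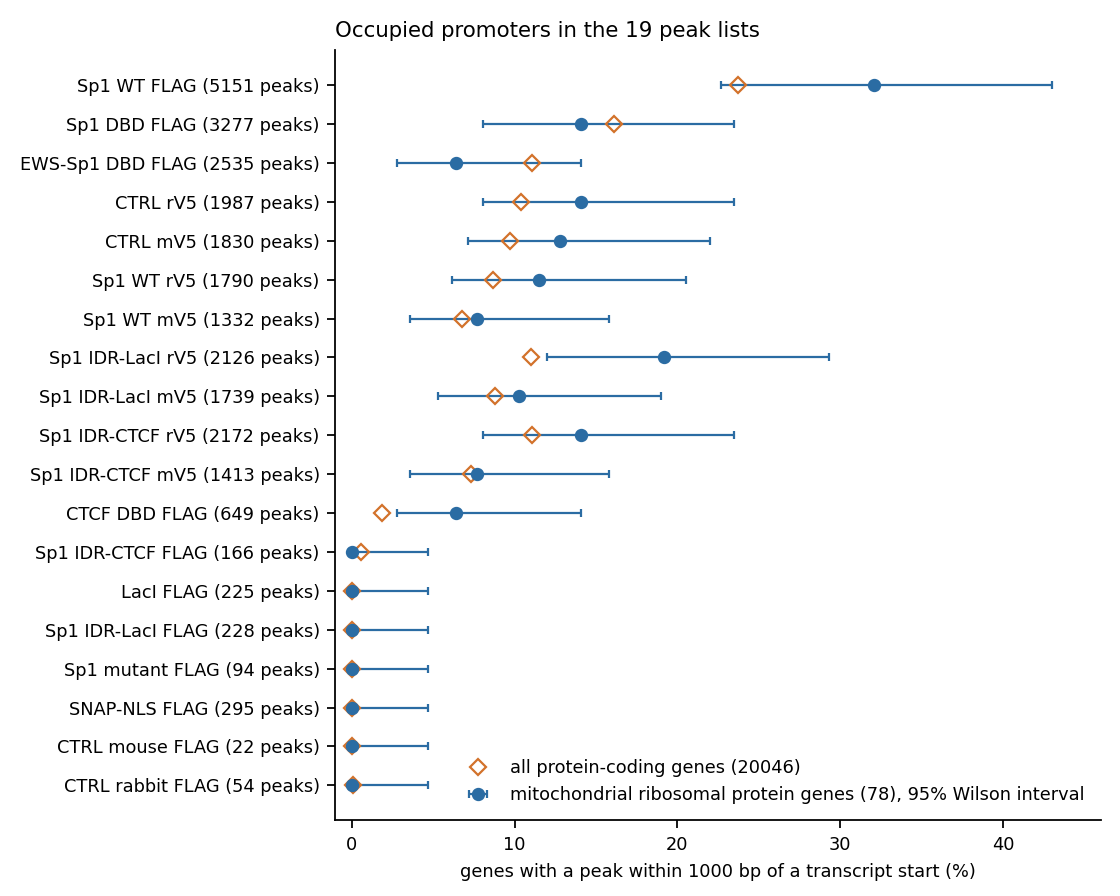
Share of promoters with a peak in each of the 19 lists (x axis, percent of genes; y axis, the list with its number of peaks; rV5 and mV5, rabbit and mouse anti-V5; IDR, the disordered activation domain). Blue points are the 78 mitochondrial ribosomal protein genes with 95% Wilson intervals and open orange diamonds are all 20046 protein-coding genes. The diamond lies inside the interval in all lists but rabbit anti-V5 of the Sp1 IDR–LacI line and the CTCF DBD.

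Genes for both subunits were among the occupied ones. Sp1 WT had peaks at 15 of 51 large-subunit genes (29.4%, 18.7 to 43%), at 9 of 26 small-subunit genes (34.6%, 19.4 to 53.8%) and at MRPS36. By descent, 14 of 46 genes with a bacterial homologue (30.4%, 19.1 to 44.8%) and 10 of 31 mitochondria-specific genes (32.3%, 18.6 to 49.9%) were occupied. The Sp1 DBD list held 8 of 46 (17.4%, 9.09 to 30.7%) and 2 of 31 (6.45%, 1.79 to 20.7%), and rabbit anti-V5 in the parental line held 9 of 46 (19.6%, 10.7 to 33.2%) and 2 of 31 (6.45%, 1.79 to 20.7%). The backgrounds over all genes were 23.7% for Sp1 WT, 16.1% for Sp1 DBD and 10.4% for that anti-V5 list. The interval of the genes with a bacterial homologue lay just above the last, every other interval held its background, and the intervals of the descent classes overlapped in all of these lists.

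Peaks were ranked within a list by the −log10 p-value that the authors' joining of replicates assigned, which was the smaller replicate value in all 19 lists. The rank is given as a percentile of its own list, with 100 for the highest peak, because the p-values of different lists are not on a common footing. Over the 25 members occupied in Sp1 WT the median percentile was 54.3, beside 54.8 for all occupied genes, with 8 members in the highest 25% of the list (32%, beside 29% of occupied genes) and 8 in the lowest 25% (32%, beside 21.8%). In the other lists the members' median by the joined value was lower than that of all genes with 1 exception, EWS IDR–Sp1 DBD (56.7 over 5 members, beside 53.1). The values were 42.5 beside 52.7 for Sp1 DBD, 42.3 beside 53 and 44.4 beside 52 for rabbit and mouse anti-V5 in the parental line, 46.3 beside 53.3 and 41.9 beside 50.8 in the Sp1 WT line, 37 beside 51.6 and 43.6 beside 51.8 in the Sp1 IDR–LacI line, and 36 beside 52.4 and 38.3 beside 52 in the Sp1 IDR–CTCF DBD line. The lists share members and may share control libraries, so these medians are not separate evidence. For the CTCF DBD the median was 23.8 beside 49.8. The direction depended on the replicate in 3 lists. Ranked by the second replicate value alone, the members' median was 54.9 beside 52.3 for rabbit anti-V5 in the parental line and 52.4 beside 51.8 for mouse anti-V5 in the Sp1 IDR–CTCF DBD line, and by the first alone it was 49.2 beside 51.8 for EWS IDR–Sp1 DBD. The CTCF DBD median was 44.7 beside 53.2 by the second replicate value, against 23.8 by the first.

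MRPL2 (ENSG00000112651.12, chr6:43054029-43059438, minus strand), which encodes a core protein next to the peptidyl transferase centre, had the highest peak of the group. Its Sp1 WT peak at chr6:43059110-43060421 had replicate −log10 p-values of 63.7 and 80 and stood at percentile 96.9. The summit was 83 bp from the nearest start of KLC4, a kinesin light chain gene on the opposite strand, and 298 bp from the nearest start of MRPL2, so the peak is one of a shared promoter. MRPL2 was also at percentile 94.2 for Sp1 DBD, 68.9 for EWS IDR–Sp1 DBD and between 52.5 and 78.6 in the 8 anti-V5 lists. MRPL4 (ENSG00000105364.14, chr19:10251901-10260055, plus strand), whose product lines the peptide exit tunnel, was the other member occupied in all 11 lists. Its percentile was 85.8 for Sp1 WT, with replicate −log10 p-values of 37.8 and 47.2, 77.9 for Sp1 DBD, 71 for EWS IDR–Sp1 DBD and between 52.4 and 81 in the anti-V5 lists. Of all protein-coding genes 2.07% were occupied in all 11, against 2.56% of the members.

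Of the other large-subunit genes, MRPL18 was next in the Sp1 WT list. The replicate −log10 p-values were 44.1 and 67.4 (percentile 90), and the summit lay 2 bp from an MRPL18 start in the promoter shared with TCP1, a subunit gene of the cytosolic chaperonin. Its percentile was 42.5 for Sp1 DBD and 24.5 to 48.7 in the 5 anti-V5 lists that held it, and it was absent from the EWS IDR–Sp1 DBD list. MRPL38, which encodes a mitochondria-specific protein, had replicate values of 43.8 and 42.7 (percentile 89.2) for Sp1 WT, no peak for Sp1 DBD or EWS IDR–Sp1 DBD, and percentiles of 3.38 to 25.7 in 3 rabbit anti-V5 lists. It was in neither parental list. Percentiles of lists that differ in length and antibody are given side by side and are not a change in occupancy. MRPL11, a protein of the stalk base, was at percentile 80.2 for Sp1 WT (replicate values 32.3 and 57), 60.8 for Sp1 DBD and 31.7 for EWS IDR–Sp1 DBD, and was found in 7 of the 8 anti-V5 lists. The peak covers an outer start of MRPL11 and a start of PELI3. The start that the annotation marks as canonical lies 27753 bp from the summit.

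Among small-subunit genes, MRPS28 and MRPS18B were high for Sp1 WT and had no Sp1 DBD peak. MRPS28 had replicate −log10 p-values of 43.3 and 60 (percentile 89.6) for Sp1 WT, 41.7 and 58.2 (percentile 80.2) with rabbit anti-V5 in the parental line, and 15.2 and 49.2 (percentile 25.5) with mouse anti-V5. The rank of this gene thus differed between the antibodies in the same line. MRPS18B, a paralogue of a bacterial small-subunit protein that was counted here as mitochondria-specific, had values of 33.9 and 43 (percentile 82.1) for Sp1 WT. It was in all 8 anti-V5 lists, at percentile 70.6 and 75.2 in the parental line and 89.7 with rabbit anti-V5 in the Sp1 IDR–LacI line. Its Sp1 WT summit was nearer to PPP1R10, a phosphatase regulatory subunit gene, at 179 bp, than to MRPS18B at 417 bp. MRPS9 (percentile 69.8) and MRPS31 (68.9) completed the 10 highest members with MRPS36 (83.8, replicate values 35.6 and 47.3). MRPS31 was in no other list.

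MRPS16 was at percentile 54.3 for Sp1 WT (replicate values 19.9 and 47.1) and at 69.4 for Sp1 DBD (21.9 and 25.9). By the second replicate value alone the order turned, with 74.5 for Sp1 WT and 69.3 for Sp1 DBD. It was found in 10 of the 11 lists, with percentiles of 7.5 to 42.8 in 7 anti-V5 lists. The lowest occupied members for Sp1 WT were MRPL41 (percentile 1.16, replicate values 8.58 and 20.1) and MRPL50 (percentile 2.22, replicate values 8.8 and 24.6), both mitochondria-specific large-subunit genes at the edge of what the list kept. At the edge of the distance rule, the occupied members whose peak did not reach a start were MRPS26, 63 bp away, and MRPL50, 46 bp away, and the nearest unoccupied ones were MRPL34, 2741 bp from a Sp1 WT peak, and MRPL35, 3457 bp away. No member lay near the limit of 1000 bp. For the 53 unoccupied members the median distance to a Sp1 WT peak was 94.1 kb.

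**Figure D2:**
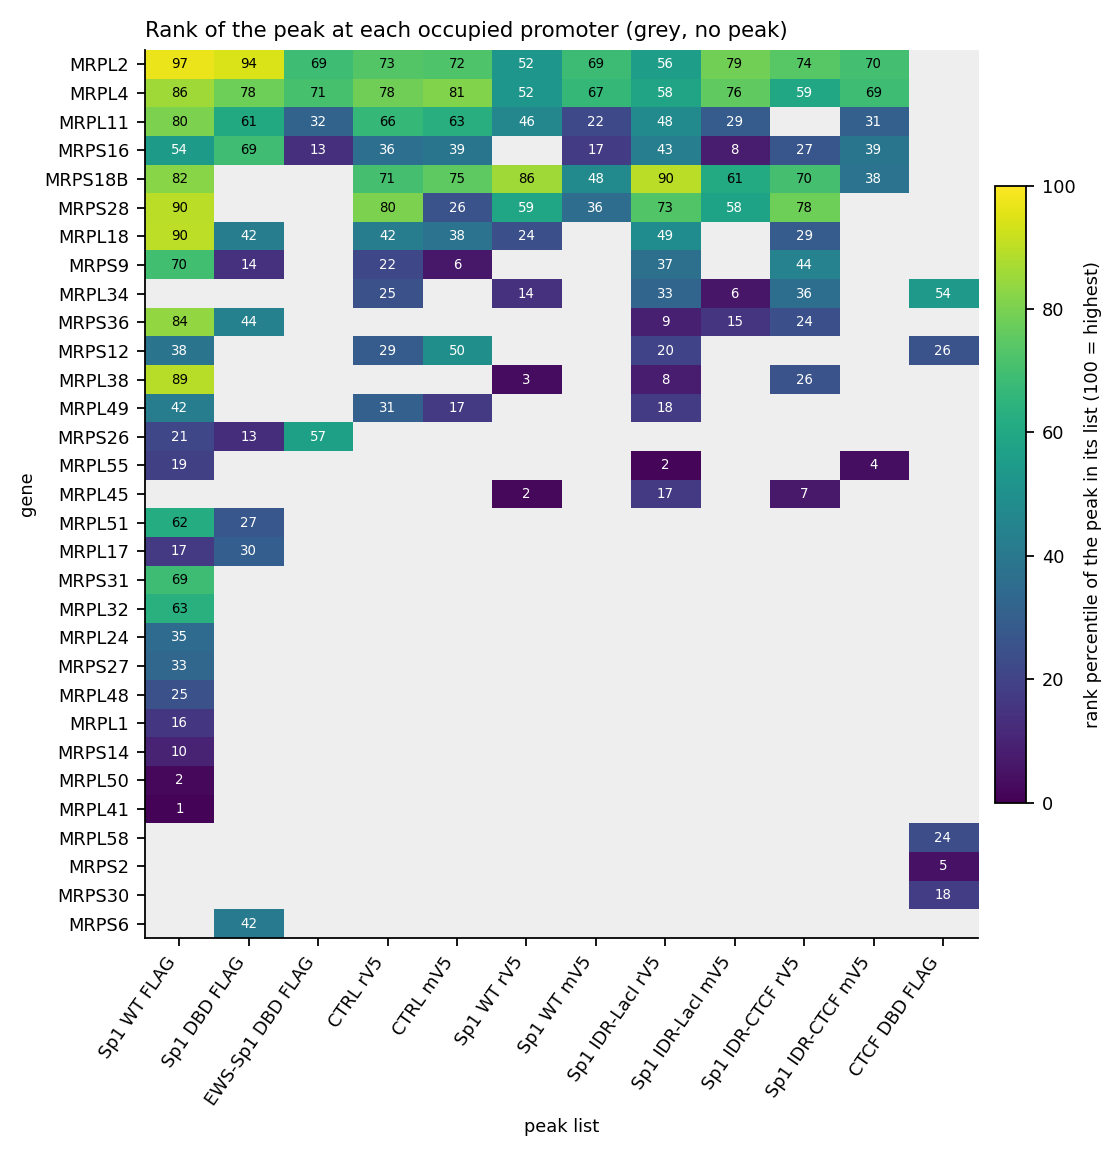
Rank percentile (colour and number, 100 for the highest peak of the list) of the peak at each of the 31 members occupied in at least 1 list, for the 12 lists that held any (x axis; y axis, genes ordered by number of lists). MRPL2 and MRPL4 are filled across the 11 Sp1-type lists, and 9 genes are filled in the Sp1 WT list alone.

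Over the 11 lists of Sp1 or a protein with its DNA binding domain, 28 members were occupied at least once (35.9%, beside 28.9% of all genes) and 50 never. Of the 28, 10 were in 1 list, 10 in at least 5 and 4 in at least 10. Sp1 WT was the only list for 9 of its 25 members, or 36%, beside 24.8% of its genes over the whole annotation. These were MRPL1, MRPL24, MRPL32, MRPL41, MRPL48, MRPL50, MRPS14, MRPS27 and MRPS31. MRPL1 is a stalk protein, MRPL24 sits at the exit of the peptide tunnel, and MRPL32 is a subunit that the m-AAA protease matures. The 3 members outside the Sp1 WT list were MRPS6, MRPL34 and MRPL45. MRPS6 was occupied only in the Sp1 DBD list, at percentile 41.5, in a promoter with 9 GC boxes. MRPL34 was in 5 anti-V5 lists, at percentile 6.18 to 36, as well as the CTCF DBD list, at 53.8. The peaks were not all at the same site. With rabbit anti-V5 in the Sp1 WT and Sp1 IDR–LacI lines the summit was 67 and 119 bp from a start of ABHD8. It was 625 and 677 bp from the nearest start of MRPL34. MRPL45, which tethers the ribosome to the inner membrane, was in 3 rabbit anti-V5 lists at percentile 2.18 to 17 and in no mouse anti-V5 list.

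The 25 members of the Sp1 WT list were then followed into the other lists, as shares of those 25 beside the same share over the 4744 genes occupied in Sp1 WT. The Sp1 DBD list held 10 of the 25 (40%, 23.4 to 59.3%, beside 54.5% of all Sp1 WT genes) and the EWS IDR–Sp1 DBD list 5 (20%, 8.86 to 39.1%, beside 37.8%). Both shares were below those of all Sp1 WT genes, with intervals that hold them. Each parental anti-V5 list held 10, or 40%, beside 36.6% for the rabbit and 35% for the mouse antibody, and these were the same 10 genes: MRPL2, MRPL4, MRPL11, MRPL18, MRPL49, MRPS9, MRPS12, MRPS16, MRPS18B and MRPS28. The anti-V5 lists of the Sp1 WT line held 7 (28%, beside 30.6%) and 6 (24%, beside 24.2%). Those of the Sp1 IDR–LacI line held 13 (52%, beside 39.1%) and 7 (28%, beside 31.5%), and those of the Sp1 IDR–CTCF DBD line 9 (36%, beside 39.2%) and 6 (24%, beside 25.9%), in each case for rabbit and then mouse anti-V5. The CTCF DBD list held 1, MRPS12 (4%, beside 4.32%). Any anti-V5 list held 13 of the 25 (52%, beside 52.4%). The lists may share the merged control libraries used in peak calling, so these overlaps are descriptions.

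Seen from the shorter list, 10 of 11 members of the Sp1 DBD list (90.9%, beside 80.4% of its genes) and all 5 of the EWS IDR–Sp1 DBD list (100%, beside 80.5%) were Sp1 WT members. All 5 EWS IDR–Sp1 DBD members (MRPL2, MRPL4, MRPL11, MRPS16 and MRPS26) were also among the 11 of the Sp1 DBD (100%, beside 80.8%). MRPS26 stood apart among them, at percentile 21.3 for Sp1 WT, 13.2 for Sp1 DBD and 56.7 for EWS IDR–Sp1 DBD, with replicate values of 17.7 and 17.4 in the last, and in no anti-V5 list.

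Members that the Sp1 DBD, EWS IDR–Sp1 DBD or parental anti-V5 lists also held had higher median ranks in Sp1 WT than those they did not. The 10 Sp1 WT members that the Sp1 DBD list also held had a median Sp1 WT percentile of 75 (range 17 to 96.9), and the 15 others 34.9 (1.16 to 89.6). Over all genes the medians were 70.4 and 35.8. For EWS IDR–Sp1 DBD they were 80.2 and 40.4 in members, beside 75.6 and 41.8 over all genes. For either parental anti-V5 list the members' medians were 81.1 and 24.8, beside 78.2 and 41.4 over all genes for the rabbit antibody and 80 and 41.1 for the mouse. In the highest 25% of the Sp1 WT list all 8 members were in an anti-V5 list (86.1% of all genes there) and 5 of the 8 were in the Sp1 DBD list, or 62.5%, where 82.8% of all genes were. MRPS28, MRPL38 and MRPS18B were the 3 without a Sp1 DBD peak. In the lowest 25% of it 2 of 8 members were in the Sp1 DBD list (25%, beside 24.6%).

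**Figure D3:**
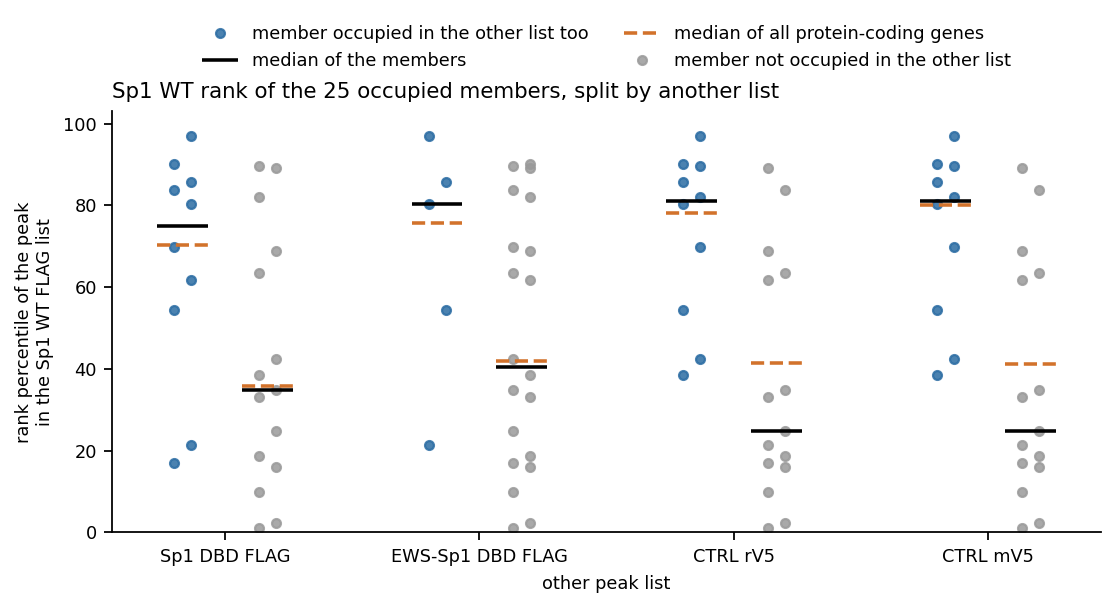
Rank percentile in the Sp1 WT FLAG list (y axis) of the 25 occupied members, split by whether another list (x axis) also held a peak at the gene. Points are genes, black lines the members' medians and dashed orange lines the medians of all protein-coding genes. For rabbit anti-V5 in the parental line the members' medians are 81.1 and 24.8.

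Rabbit and mouse anti-V5 in the parental line gave nearly the same members, with MRPL34 as the 1 gene in the rabbit list alone. The 10 shared members were 90.9% of the rabbit list, beside 78% of its genes, and 100% of the mouse list, beside 83.4%. In the transgenic lines the rabbit lists, which are longer, held more members. At 1332 peaks each, the rabbit and mouse lists held 5 and 6 members in the Sp1 WT line, 7 and 5 in the Sp1 IDR–LacI line and 5 and 5 in the Sp1 IDR–CTCF DBD line, so at equal length the rabbit list held more in the Sp1 IDR–LacI line alone. As shares these were 6.41% and 7.69%, 8.97% and 6.41%, and 6.41% and 6.41%. The shares of all genes were 6.6% and 6.8%, 7.19% and 6.88%, and 7.09% and 6.95%, in the same order. In the full lists all 8 members of the mouse anti-V5 list of the Sp1 IDR–LacI line were among the 15 of the rabbit list (53.3% of the rabbit list, beside 68.5% of its genes). The others of the rabbit list were MRPL18, MRPL38, MRPL45, MRPL49, MRPL55, MRPS9 and MRPS12. In the Sp1 IDR–CTCF DBD line the antibodies shared 4 members, which was 36.4% of the 11 in the rabbit list, beside 58.8% of its genes, and 66.7% of the 6 in the mouse list, beside 88.8%. With the antibody held fixed at rabbit anti-V5, all 11 parental members were in the Sp1 IDR–LacI list (100%, beside 81.4% of all parental genes), 7 in the Sp1 WT list (63.6%, beside 70.5%) and 8 in the Sp1 IDR–CTCF DBD list (72.7%, beside 79.7%). In the other direction, 77.8% of the members in the Sp1 WT rabbit list were in the parental one (beside 84.9% of its genes). For Sp1 IDR–LacI it was 73.3% (beside 76.8%) and for Sp1 IDR–CTCF DBD 72.7% (beside 75%). MRPL38 and MRPL45 were in all 3 of the transgenic rabbit lists and not in the parental one. MRPS36 was added in the lines with Sp1 IDR–LacI and Sp1 IDR–CTCF DBD, and MRPL55 in the Sp1 IDR–LacI line. These additions were of low rank, with percentiles of at most 25.7, 17 and 24.3 for MRPL38, MRPL45 and MRPS36 in the rabbit lists, and 1.53 for MRPL55. Whether they differ between cultures was not tested.

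The peaks themselves resembled those at other promoters. The 25 members had 25 distinct Sp1 WT peaks with a median width of 887 bp, beside 1002 bp over all occupied genes, and a median distance from summit to nearest start of 111 bp, beside 130 bp. The peak covered a start in 23 of 25 (92%, beside 92.3%). In 10 of 25 (40%, beside 33.2%) a start of another protein-coding gene lay within 1000 bp of the same peak. The member was the gene nearest to the summit in 21 of 25 (84%, beside 82.8%), and the exceptions were MRPL2, MRPL50, MRPS12 and MRPS18B, whose neighbours KLC4, ZNF189, SARS2 and PPP1R10 were nearer. SARS2 encodes the mitochondrial seryl-tRNA synthetase, so the peak at MRPS12, a protein of the decoding centre, covers starts of a pair of genes of mitochondrial translation. A GC box within 100 bp of the summit was found at 19 of 25 Sp1 WT peaks (76%, beside 74.5%). At the Sp1 DBD peaks the count was 6 of 11 (54.5%, beside 77.2%), and at the EWS IDR–Sp1 DBD peaks 5 of 5 (100%, beside 78.6%). With rabbit anti-V5 in the parental line it was 9 of 11 (81.8%, beside 84.5%).

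Promoter sequence was read from 250 bp before to 50 bp after the canonical start of each gene, on both strands. A GC box was present at 47 of 78 members (60.3%, 49.2 to 70.4%), beside 61.3% of all genes. Motifs of other factors were more frequent at the members. The ETS motif CCGGAAG occurred at 32 members (41%, 30.8 to 52.1%), beside 14.1%, and AAGATGGC, a core recognised by YY1, at 22 members (28.2%, 19.4 to 39%), beside 4.05%. GCATGCGC, the core bound by NRF1, an activator of nuclear genes for mitochondrial proteins, was at 7 members (8.97%, 4.42 to 17.4%), beside 4.27%. CCAAT was at 22 (28.2%, 19.4 to 39%), beside 36.1%, and TATAAA at 4 (5.13%, 2.01 to 12.5%), beside 9.71%. The intervals for ETS, YY1 and NRF1 lay above the share of all genes. The median observed-to-expected CpG ratio was 0.886, beside 0.775. A start of another gene on the opposite strand within 1000 bp upstream was present at 26 members (33.3%), beside 9.46% of all genes, and 1 of these pairs, MRPL46 with MRPS11, joined members. Of members with such a partner 34.6% were occupied in Sp1 WT and of those without 30.8%, beside 41.2% and 21.8% over all genes.

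GC boxes were more frequent at occupied than at unoccupied members. Among Sp1 WT members 22 of 25 (88%, 70 to 95.8%) had a GC box in the window, and among the other 53 members 25 did (47.2%, 34.4 to 60.3%), beside 84.4% and 54.1% over all genes. Sp1 WT occupied 3 of 31 members with no box (9.68%, beside 9.56% of such genes), 9 of 20 with 1 (45%, beside 23.7%), 3 of 9 with 2 (33.3%, beside 32.9%) and 10 of 18 with 3 or more (55.6%, beside 40.1%). The share rose with each step over all genes and not from 1 to 2 boxes in members. The 3 occupied members without a box in the window were MRPL11, MRPL48 and MRPS18B. For MRPL11 the window is at the canonical start, away from the peak, and the same holds for MRPS27, counted among those with a box, whose canonical start is 11767 bp from its summit. The ETS motif was at 8 of 25 occupied members (32%, 17.2 to 51.6%) and 24 of 53 unoccupied ones (45.3%, 32.7 to 58.5%), intervals that overlap. Over all genes the ETS shares were 18.1% for occupied and 12.9% for unoccupied promoters. YY1 letters were at 8 of 25 (32%) and 14 of 53 (26.4%). The 50 members in none of the 11 lists had a median CpG ratio of 0.875 and a GC box in 23 cases (46%, 33 to 59.6%), beside 0.709 and 51.7% over all genes in none of the lists.

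**Figure D4:**
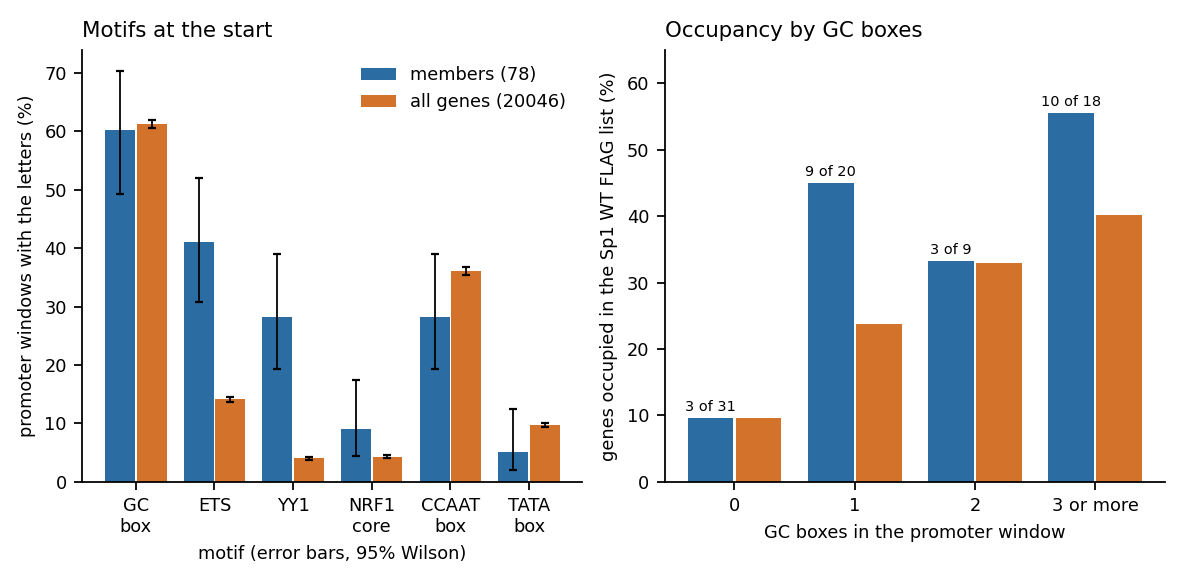
Left, share of promoter windows that hold each motif (y axis, percent; x axis, motif) in the 78 members (blue) and all 20046 protein-coding genes (orange), with 95% Wilson intervals. Right, share of genes occupied in the Sp1 WT FLAG list (y axis, percent) by the number of GC boxes in the window (x axis), with the members' counts above the blue bars. There, 9.68% of members without a box and 55.6% of those with 3 or more are occupied.

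The CTCF DBD had a peak at 5 members, of which MRPL34 and MRPS12 were also in Sp1-type lists. Their percentiles in that list were 53.8 for MRPL34, 25.7 for MRPS12, 23.8 for MRPL58, 18 for MRPS30 and 4.78 for MRPS2. MRPL58 is a peptidyl-tRNA hydrolase built into the large subunit. In each case 1 replicate was weaker, as at MRPL34 with −log10 p-values of 10.4 and 41. MRPL58, MRPS2 and MRPS30 had no peak in any of the 11 Sp1-type lists, with the nearest Sp1 WT peak 12014 bp from MRPL58 and further from the others. MRPS12 alone was shared with Sp1 WT (1 of 5, or 20%, 3.62 to 62.4%, beside 54.5% of the genes in the CTCF DBD list). At the IDR threshold of 0.01 none of the 5 was left. The list as a whole fell at that threshold from 376 genes (1.88%) to 90 (0.449%).

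For comparison, 60 other nuclear genes of mitochondrial gene expression and protein import were followed. Sp1 WT occupied 17 (28.3%, 18.5 to 40.8%, beside 23.7% of all genes) and Sp1 DBD 10 (16.7%, 9.31 to 28%, beside 16.1%). EWS IDR–Sp1 DBD occupied 5 (8.33%, 3.61 to 18.1%, beside 11.1%). Rabbit anti-V5 in the parental line held 11 (18.3%, 10.6 to 29.9%, beside 10.4%). Only the last interval lay above its background, which the members' interval in that list (8.06 to 23.5%) held. Of the 17 in Sp1 WT, 5 were among 15 translation factors and 7 among 26 assembly and rRNA modification factors. The other 5 were among 14 genes of mitochondrial transcription and import. Of the 5 ribosomal subunits with symbols of other kinds (AURKAIP1, CHCHD1, DAP3, GADD45GIP1 and PTCD3), 0 were occupied there. Like MRPL2 and MRPL4, RBFA, a ribosome binding factor, and TOMM40, the channel of the outer membrane translocase, were occupied in all 11 lists, at Sp1 WT percentile 92.3 and 94.3. TFB1M, an rRNA dimethyltransferase, was in the Sp1 DBD, EWS IDR–Sp1 DBD and 3 anti-V5 lists and not in Sp1 WT. TFAM, which packages mitochondrial DNA, was at percentile 2.67. Genes whose symbol marks a cytosolic ribosomal protein or a relative of one numbered 92. In Sp1 WT 19 were occupied (20.7%, 13.6 to 30%, beside 23.7% of all genes), at a median percentile of 25.7. With rabbit anti-V5 in the parental line 8 were (8.7%, 4.47 to 16.2%, beside 10.4%), at 31.4. Their Sp1 WT interval overlapped that of the mitochondrial ribosomal protein genes, whose median percentile there was 54.3.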

How the data were processed

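The 38 samples cover 19 pairings of a cell line with an antibody, each done in 2 biological replicates. Per the study's methods, the authors removed adapters (Cutadapt 2.6), mapped read pairs to hg38 (Bowtie2 2.3.5.1) and dropped duplicates (SAMtools 1.9). Peaks of each replicate were called by MACS3 (version written as 2.2.7.1) at a cutoff of 0.001 on the p-value, with no local background and control replicates merged. Replicates were joined by irreproducible discovery rate (IDR), and a limit of 0.1 was applied. The −log10 p-values used for ranking are those that the authors deposited, joined and per replicate. The order of the labelled replicates in the lists is not stated in the sources used here. The score behind the stricter thresholds is the deposited −log10 of the global IDR. The 6 tables of differential regions hold the authors' own comparisons of Sp1 WT with a construct and were not used. Read numbers were not analysed, and the number of reads limits each list in a way that is unknown here.

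All 60 sequence names in the lists are in the reference, and 0 peaks run past a sequence end. Starts are those of all transcripts of protein-coding genes in GENCODE 44. The highest ranked peak within 1000 bp represents a gene, and ties share a mean rank. With 1 list per combination no test was made. Shares have 95% Wilson intervals (SciPy 1.17.1). The members, the 60 other mitochondrial genes and the roles were chosen with earlier results of these data known. Genes named are the 10 highest members in Sp1 WT, those in all or none of the 11 Sp1-type lists or in another list, the 3 highest in Sp1 WT but not in Sp1 DBD, and those in Sp1 DBD or EWS IDR–Sp1 DBD but not in Sp1 WT; others were named after their values were seen. The code was checked against bedtools 2.31.1 (0 of 4744 Sp1 WT genes differed) and tested on simulated data. Python 3.11.15, NumPy 2.4.6, pandas 2.3.3, pysam 0.24.0 and matplotlib 3.10.9 were used. Alternatives were stricter IDR thresholds, other distances, summits, 1 start per gene, lists of equal length, lists without peaks of the parental anti-FLAG and SNAPf-NLS lists, ranks by either replicate, and other motif forms and windows. Some promoter sequences are not reported here.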

Additional observations from a re-analysis of the deposited data

How the results depend on the processing

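Of 220 recomputed values, 187 stayed within 1.5 times the count, or within the 95% interval of the median percentile, and 33 moved. Distances of 500 and 5000 bp, summits, 1 start per gene and lists without control peaks moved none. Median percentiles by either replicate stayed within their intervals, which are wide for so few genes: for the CTCF DBD the median was 44.7 by the second replicate against 23.8. With IDR of at most 0.05, rabbit anti-V5 in the Sp1 IDR–CTCF DBD line moved to 7 members (8.97%, beside 9.64% of all genes). The CTCF DBD moved to 3 (3.85%, beside 1.3%), and Sp1 WT members shared with EWS IDR–Sp1 DBD moved to 3. With IDR of at most 0.01 there were 13 members for Sp1 WT (16.7%, beside 13.3% of all genes) and 4 for Sp1 DBD (5.13%, beside 7.14%). There were 2 for EWS IDR–Sp1 DBD (2.56%, beside 3.87%) and 0 for the CTCF DBD (beside 0.449%). At that threshold rabbit anti-V5 held 6 in the parental line (7.69%, beside 6.27%) and 4 in the Sp1 WT line (5.13%, beside 5.15%). It held 8 in the Sp1 IDR–LacI line (10.3%, beside 7.52%) and 5 in the Sp1 IDR–CTCF DBD line (6.41%, beside 6.45%). Mouse anti-V5 held 5 in the Sp1 IDR–LacI line (6.41%, beside 5.86%). Members shared with Sp1 WT were then 4 for Sp1 DBD, 2 for EWS IDR–Sp1 DBD, and 6, 4, 7 and 4 for rabbit anti-V5 in the parental, Sp1 WT, Sp1 IDR–LacI and Sp1 IDR–CTCF DBD lines. With the 1332 highest ranked peaks of each list there were 8 members for Sp1 WT (10.3%, beside 7.1% of all genes). There were 4 for Sp1 DBD (5.13%, beside 6.95%) and 3 for EWS IDR–Sp1 DBD (3.85%, beside 6.15%). Rabbit anti-V5 in those 4 lines held 7, 5, 7 and 5 (8.97%, 6.41%, 8.97% and 6.41%). The shares of all genes there were 7.22%, 6.6%, 7.19% and 7.09%. Mouse anti-V5 held 5 in the Sp1 IDR–LacI line (6.41%, beside 6.88%). Shared with Sp1 WT were then 3 for Sp1 DBD, 2 for EWS IDR–Sp1 DBD, 6 and 5 for rabbit and mouse anti-V5 in the parental line, and 6 and 4 for rabbit anti-V5 in the Sp1 IDR–LacI and Sp1 IDR–CTCF DBD lines. Fewer peaks enter each of these settings by construction. The counts shared with Sp1 WT under these settings were not computed over all genes. The longer box GGGGCGGGG was at 20 members. A window at the outermost start, added after the data were seen, gave a count within 1.5 times.

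Counts come from lists joined over both replicates, and no list of 1 replicate alone was analysed here. No paired analysis was possible because no result comes from a test. Small counts, such as the 5 members for EWS IDR–Sp1 DBD, move by over 1.5 times with the loss of 2 genes. The number of reads behind each list is unknown, and absence from a short list is not absence of binding. All lists share merged controls, and every line derives from 1 clone.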
